A study of Homo sapiens with 2 samples.

Results

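The GATA transcription factors *GATA1*, *GATA2*, *GATA3*, *GATA4*, *GATA5* and *GATA6* were followed across the cell lineages of blood-generating heart-forming organoids (BG-HFOs). The members were chosen by gene symbol, with earlier results of these data known, and all 6, of 36601 genes in the count matrices, had unique molecular identifiers (UMIs, 1 per captured transcript) in both libraries. BG-HFOs are 3-dimensional cultures of human pluripotent stem cells grown in Matrigel and steered through the WNT pathway and with blood and vessel growth factors to form cardiac, endothelial, mesenchymal and blood cells side by side. The data hold 2 individual organoids of the line hES3 NKX2.5-eGFP, collected on day 14 and sequenced by droplet single-cell RNA sequencing with 1 library each, named 32.7 and 33.10. hES3 is a human embryonic stem cell line, and the reporter allele marks cells that transcribe *NKX2-5*. The 2 organoids are replicates of a single condition, so that no treatment or genotype is compared. All contrasts set cells of one lineage against cells of another within these organoids, and a line that stands for 1 genetic background limits what they cover.

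GATA factors are zinc-finger proteins that bind a short DNA element with GATA at its core, and they open and activate lineage genes together with partner factors. *GATA1* is required for red cells, megakaryocytes and eosinophils. *GATA2* maintains blood stem and progenitor cells, is needed in mast cells and acts in endothelium, and *GATA3* is best known from T cells and several epithelia. *GATA4*, *GATA5* and *GATA6* act in the heart, the endocardium and the gut endoderm, where *GATA4* and *GATA6* share functions in cardiac mesoderm.

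Cells were assigned to lineages by raw UMIs of a single gene, none of them a GATA gene. The gates asked for at least 100 UMIs of *HBZ* (embryonic globin, erythroid), 20 of *PF4* (megakaryocyte), 2 of *PTPRC* (leukocyte), 2 of *CDH5* (endothelial), 5 of *MYH6* (cardiomyocyte), 10 of *COL3A1* (mesenchymal) or 10 of *AFP* (endoderm), and a cell had to pass exactly 1 gate. Of 16792 cells kept in organoid 32.7 and 19893 in organoid 33.10, the *HBZ* gate held 638 and 1505, the *PF4* gate 915 and 2615, the *PTPRC* gate 886 and 435, the *CDH5* gate 2247 and 2156, the *MYH6* gate 1372 and 1440 and the *COL3A1* gate 2671 and 2365. The *AFP* gate held 178 and 12 cells and was described without a test. No gate was passed by 38.0% and 38.1% of the cells, and 8.97% and 9.01% passed several. The markers listed for each lineage were highest in their own gate in both organoids, which does not measure how pure the gates were. A total of 100 barcodes occurred in both libraries, and the median depth of the tested gates lay between 7713 and 15507 UMIs per cell.

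Levels are given as UMIs of the gene per 1000000 UMIs summed over the cells of a gate (CPM), for organoid 32.7 and then for organoid 33.10. Because free RNA was not removed from these counts and no doublet caller was run, each level was set beside a carry-over level. That level is what the gene would reach if it leaked into the gate as the median marker gene of the other lineages did. Erythroid markers were left out of it for the *PF4* gate, and megakaryocyte markers for the *HBZ* gate. The 5 erythroid markers summed to 4141 and 4874 CPM in the *PF4* and to 19330 and 17388 CPM in the *HBZ* gate. The 5 megakaryocyte markers summed to 78.4 and 114 CPM in the *HBZ* and to 13832 and 11564 CPM in the *PF4* gate. Their part in differences between these 2 gates was not tested. In the 6 gates other than *AFP*, the median ratio of the markers used ran from 0.0318 to 0.110, and the highest from 0.0661 to 2.00. A gene that leaked more than the median marker can thus exceed the carry-over level. Of 36 levels (6 genes in these 6 gates), 33 exceeded the carry-over level in both organoids. The exceptions were *GATA3*, *GATA4* and *GATA5* in the *PTPRC* gate, and these are read as background. In the 12 *AFP* cells of organoid 33.10 the carry-over level was 0, so that any UMI exceeds it and the comparison says nothing there. Differences were tested on the summed counts with the quasi-likelihood test of edgeR (n = 2 organoids per gate, 12 sums for the 6 gates), and a gene was called at an adjusted p under 0.05 over all genes tested. The fit rescales the sums between gates (TMM) and CPM does not, so that fitted fold changes can differ from ratios of the levels. The labels do not say whether the organoids came from separate cultures, and the p-values measure only the spread between them.

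In the human genome GRCh38, *GATA1* lies at chrX:48786540-48794311 on the plus strand, *GATA2* at chr3:128479427-128493201 on the minus strand and *GATA3* at chr10:8045378-8075198 on the plus strand. *GATA4* lies at chr8:11676959-11760002 on the plus strand, *GATA5* at chr20:62463497-62475995 on the minus strand and *GATA6* at chr18:22169589-22202528 on the plus strand. An antisense gene overlaps *GATA2* by 3990 bases, *GATA3* by 3035 and *GATA6* by 290. How the counting treated strand is not given in the sources used here, so that the counts of these pairs are uncertain.

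The 6 GATA genes differed in the order of their lineages. *GATA1* was highest in the *PF4* gate and then in the *HBZ* gate. *GATA2* reached similar levels in the endothelial and in all 3 blood gates, and *GATA3* was highest in the *CDH5* and *COL3A1* gates. *GATA4* led in the *MYH6* and *COL3A1* gates with overlapping values, *GATA5* in the *HBZ* gate, apart from the gate that followed it, and *GATA6* in the *COL3A1* gate, apart from the *MYH6* but not from the *AFP* gate. The share of all genes that did not overlap between these gates was not computed.

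**Figure D1:**
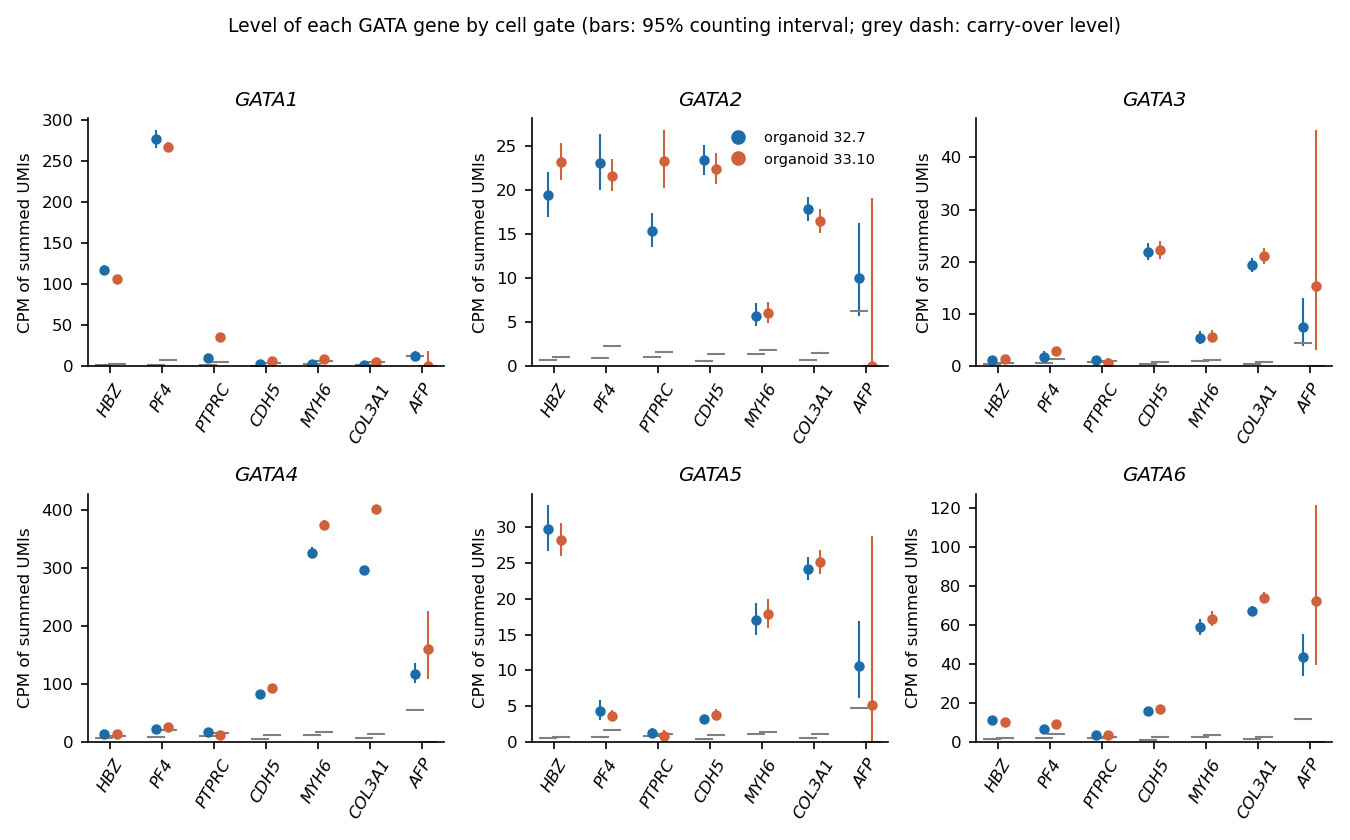
Level of each GATA gene (CPM of summed UMIs, linear axis from 0) in the 7 gates, 1 point per organoid with its 95% counting interval, and the carry-over level as a grey dash. *GATA1* stands at 277 and 267 CPM in the *PF4* gate, *GATA5* at 29.8 and 28.2 CPM in the *HBZ* gate, and the 12 cells of the *AFP* gate in organoid 33.10 give wide intervals.

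The number of GATA genes called has to be read against the share of all genes called, which was large wherever lineages were compared. Between the *HBZ* and *PF4* gates 3 of 6 GATA genes were called, beside 49.1% of the 21534 genes tested. Between the *HBZ* and *PTPRC* gates 4 were called, beside 43.5% of all genes. The *PF4* and *CDH5* gates differed in 5, beside 56.0%, and the *PTPRC* and *CDH5* gates also in 5, beside 53.1%. The *CDH5* and *COL3A1* gates differed in 4, beside 50.8%, and the *MYH6* and *COL3A1* gates in 3, beside 40.7%. With about every other gene called, these counts are no result about the family, and what follows gives direction and size. When a gate was split by a second gene, far fewer genes were called. *RUNX1* in the *CDH5* gate gave 2 GATA genes, beside 6.08% of all genes. *NR2F2* in the *CDH5* gate gave 4, beside 13.2%. *EPX* or *CLC* against *C1QA* in the *PTPRC* gate gave 2, beside 13.9%. *WT1* in the *COL3A1* gate gave 0, beside 0.202%.

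**Figure D2:**
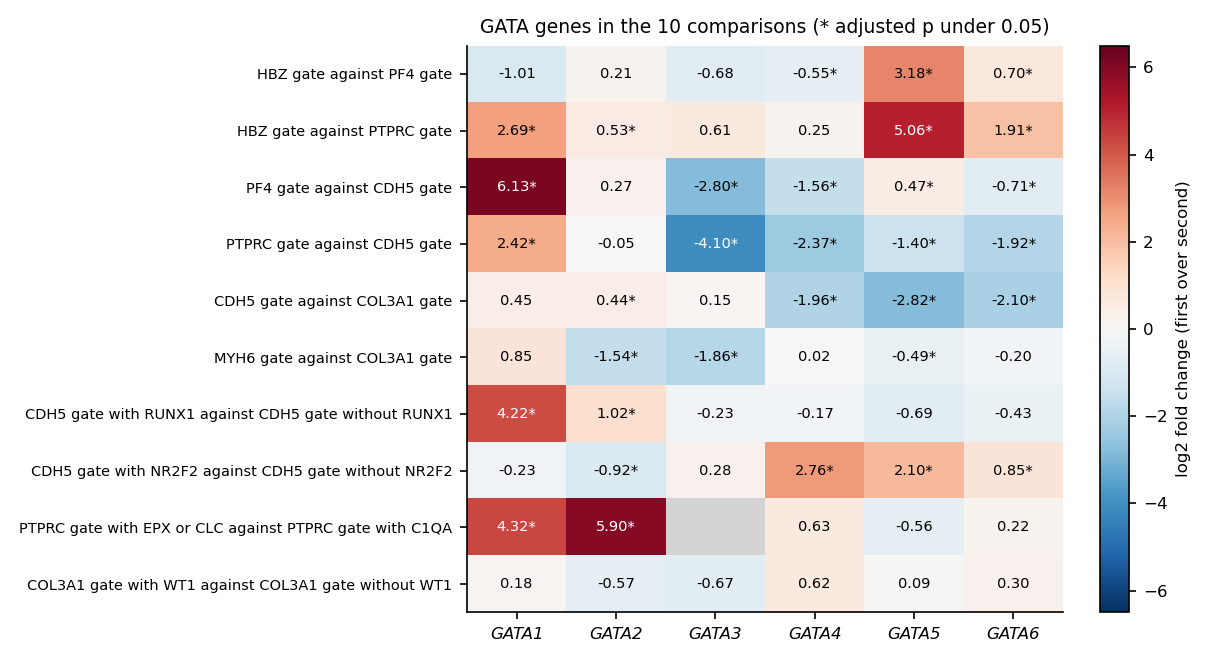
Fitted log2 fold change of each GATA gene (columns) in the 10 comparisons (rows), first-named cells over second-named, with an asterisk at an adjusted p under 0.05. *GATA1* reaches 6.13 in the *PF4* over the *CDH5* gate, *GATA5* 5.06 in the *HBZ* over the *PTPRC* gate, where its level is read as background, and the grey square is *GATA3* where the first-named cells hold 0 UMIs.

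*GATA1*, the master regulator of red cells and megakaryocytes, was a gene of the blood gates. In the *PF4* gate it stood at 277 and 267 CPM, and in the *HBZ* gate at 117 and 106 CPM. The *PTPRC* gate had 10.4 and 36.3 CPM, and the *CDH5*, *MYH6* and *COL3A1* gates between 1.95 and 9.15 CPM, close to their carry-over levels of 1.16 to 6.53 CPM. The *PF4* and *HBZ* gates did not overlap with each other or with any other gate. Against the *CDH5* gate *GATA1* was higher in the *PF4* gate by 6.13 ± 0.68 on the log2 scale (SE, n = 2 per gate, adjusted p = 1.63e-05). Its log2 fold change in the *HBZ* over the *PTPRC* gate was 2.69 ± 0.59 (adjusted p = 0.00316). Between the *HBZ* and *PF4* gates the fitted log2 difference was -1.01 ± 0.53 and missed the threshold (adjusted p = 0.143). With the organoid as a block the adjusted p was 0.0324, and with only these 2 gates in the fit it was 0.000615. In the *PTPRC* gate the higher *GATA1* of organoid 33.10 came with more of *ITGA2B*, a megakaryocyte integrin, at 25.7 and 93.7 CPM, whose part in the level was not tested. The 5 megakaryocyte markers summed to 97.3 and 224 CPM there, and none was at 0.

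In shares of cells, *GATA1* was found in 53.5% (95% exact interval 49.7 to 57.1%) and 51.9% (49.8 to 54.0%) of *PF4* cells after every cell was thinned to 3000 UMIs. The *HBZ* gate gave 24% (20.6 to 27.6%) and 25.6% (23.4 to 28.0%), and the *COL3A1* gate, a lineage that should lack the gene, 0.757% and 1.66%. Without thinning the shares were 70.3% and 74.6% in the *PF4* gate and 68.2% and 60.3% in the *HBZ* gate, whose cells were deeper in both organoids. Intervals of single libraries cover counting error only. Cells of the *PF4* gate with a UMI of *MKI67*, a gene of dividing cells, had *GATA1* at 252 and 223 CPM, and cells without it at 286 and 278 CPM. The cells with *MKI67* were deeper, with a median of 15555 and 15395.5 UMIs against 6876.5 and 7391, whose part was not tested.

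**Figure D3:**
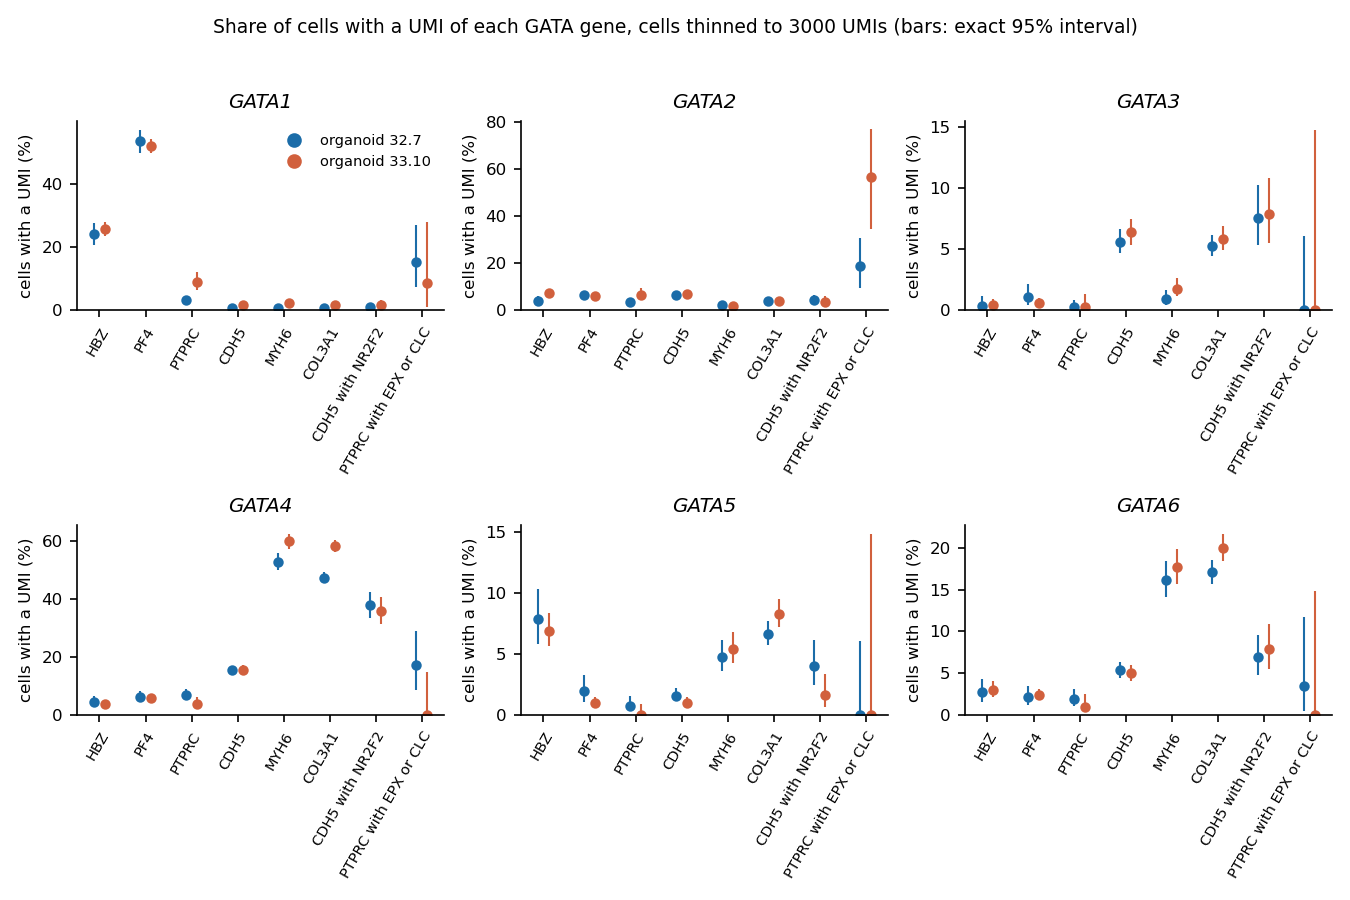
Share of cells with at least 1 UMI of each GATA gene (percent, linear axis from 0) after thinning each cell to 3000 UMIs, 1 point per organoid with its exact 95% interval. *GATA1* stands above 50% in the *PF4* gate of both organoids, *GATA4* at 52.7% and 59.7% in the *MYH6* gate, and *GATA2* at 18.6% and 56.5% in the few *PTPRC* cells with *EPX* or *CLC*.

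Within the leukocyte gate, *GATA1* and *GATA2* were higher in cells with *EPX* or *CLC* than in cells with *C1QA* or *MPO*. Cells with at least 3 UMIs of *EPX* and *CLC* together (eosinophil peroxidase and the Charcot-Leyden crystal protein) numbered 60 and 23, cells with at least 3 of the macrophage complement gene *C1QA* 376 and 178, and cells with at least 5 of the granule gene *MPO* 182 and 48. *GATA2* stood at 99.9 and 182 CPM in the *EPX* or *CLC* cells, at 2.97 and 0.877 CPM in the *C1QA* cells and at 4.67 and 2.81 CPM in the *MPO* cells. *GATA1* followed with 51.4 and 86.1 CPM, 3.25 and 3.22 CPM, and 2.45 and 3.75 CPM. The *EPX* or *CLC* cells were thus higher than both other sets, without overlap, and of all genes 50% did not overlap between the *EPX* or *CLC* and the *C1QA* cells. For the *MPO* cells this share of all genes was not computed, and no fit was made against them. The whole gate, of 886 and 435 cells, had *GATA1* at 10.4 and 36.3 CPM and *GATA2* at 15.4 and 23.3 CPM. Its cells in none of these sets were not measured on their own, so that *GATA1* and *GATA2* are not shown to be confined to 1 set. Which cell types make up the *EPX* or *CLC* set was not tested. Over the *C1QA* cells the log2 fold change was 5.90 ± 0.36 for *GATA2* (adjusted p = 7.08e-08) and 4.32 ± 0.67 for *GATA1* (adjusted p = 0.000372). The *C1QA* cells had means of 1.92 CPM for *GATA2* and 3.23 CPM for *GATA1*, beside mean carry-over levels of 0.686 and 1.88 CPM. The sizes of these folds therefore rest on low levels, and the part of background in them was not tested.

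Further genes of the fixed lists differed in the same comparison. *HDC*, the histidine decarboxylase that makes histamine, was at 102 and 342 CPM in the *EPX* or *CLC* cells and at 1.27 and 0 CPM in the *C1QA* cells (log2 fold change 7.96 ± 0.98, called). The antisense gene *GATA2-AS1* was at 29.5 and 38.3 CPM against 2.83 and 2.05 CPM (log2 fold change 3.67 ± 0.31, called). The progenitor factor *MYB* and the repressor *GFI1B* were higher, with log2 fold changes of 4.64 ± 0.30 and 4.05 ± 1.03, and *SPI1*, which drives macrophage genes, was lower by 1.00 ± 0.16 (log2 fold change -1.0). *GATA3* had 0 UMIs in the *EPX* or *CLC* cells of both organoids, which allows a level of up to 2.85 and 5.74 CPM, and in the *C1QA* cells it stood below that, so that no fold is given. The 5 megakaryocyte markers summed to 117 and 103 CPM against 39.0 and 83.9 CPM, with 2 of them at 0 in the *EPX* or *CLC* cells of organoid 33.10, and their part in *GATA1* was not tested. The 5 erythroid markers summed to 74.2 and 80.3 CPM against 65.2 and 93.8 CPM. Over all genes 1133 were called higher and 1788 lower, and DESeq2, which scales differently, called 1559 higher and 1641 lower.

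**Figure D4:**
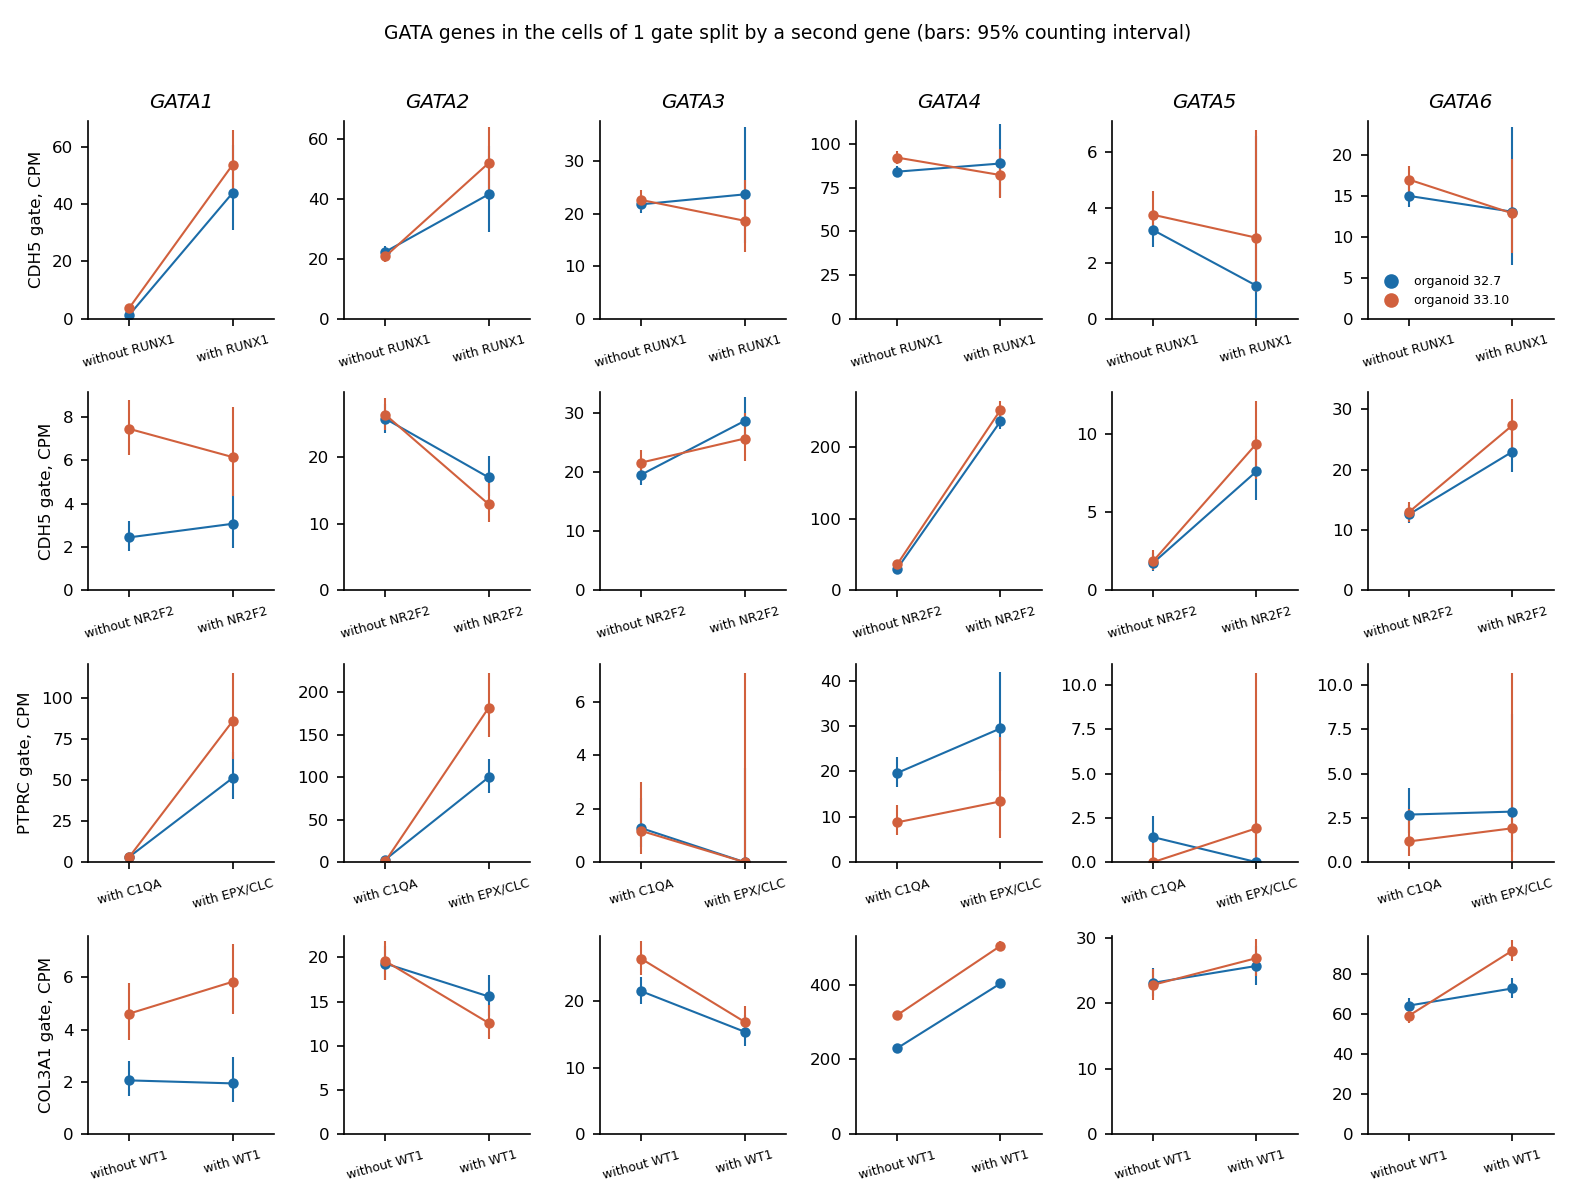
Level of the 6 GATA genes (CPM, linear axis from 0) in cells of a gate split by a second gene, with a line joining the values of an organoid and 95% counting intervals. *GATA1* and *GATA2* rise with *RUNX1* in the *CDH5* gate and with *EPX* or *CLC* in the *PTPRC* gate, and *GATA4*, *GATA5* and *GATA6* rise with *NR2F2* in the *CDH5* gate.

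*GATA2*, a factor of blood progenitors and endothelium, had the flattest profile of the family. It stood at 23.3 and 22.4 CPM in the *CDH5* gate, 23.0 and 21.6 CPM in the *PF4* gate, 19.4 and 23.1 CPM in the *HBZ* gate, 15.4 and 23.3 CPM in the *PTPRC* gate and 17.8 and 16.4 CPM in the *COL3A1* gate. Neighbours in this order overlapped, and the *MYH6* gate lay apart at 5.73 and 6.03 CPM. The log2 fold change in the *MYH6* over the *COL3A1* gate was -1.54 ± 0.18 (called), and in the *CDH5* over the *COL3A1* gate 0.44 ± 0.16 (adjusted p = 0.0435). That last call is small and was lost under 3 other settings, with adjusted p between 0.0539 and 0.0609. Between the *PF4* and *CDH5* gates the log2 difference was 0.27 ± 0.17 (adjusted p = 0.197), and between the *HBZ* and *PF4* gates 0.21 ± 0.17 (adjusted p = 0.346). Both fitted differences ran against the order of the mean CPM levels, which are not rescaled between gates. Between the *PTPRC* and *CDH5* gates the log2 difference was -0.05 ± 0.17 (adjusted p = 0.841), and halving the gate thresholds turned it to 0.17. The *HBZ* gate was higher than the *PTPRC* gate by 0.53 ± 0.17 (adjusted p = 0.0305), although the levels of the organoids overlapped. That call was lost with halved thresholds and with only these gates in the fit (adjusted p = 0.0891 and 0.0679). In the *HBZ* gate, cells with *MKI67* had *GATA2* at 23.2 and 26.6 CPM and cells without it at 13.9 and 20.3 CPM. The cells with *MKI67* were deeper, with a median of 26726 and 17389.5 UMIs against 11595 and 9407, whose part was not tested.

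Endothelial cells that carried *RUNX1*, the factor of the endothelial-to-haematopoietic transition, had more *GATA1* and *GATA2*. These cells (at least 2 UMIs of *RUNX1*) were few, 43 and 77, against 2054 and 1941 cells with 0 UMIs of it. *GATA1* was at 43.9 and 53.7 CPM with *RUNX1* and at 1.29 and 3.75 CPM without it, and *GATA2* at 41.5 and 52.0 CPM against 22.3 and 20.8 CPM. Neither gene overlapped between the sets, nor did 50.1% of all genes. The log2 fold change was 4.22 ± 0.71 for *GATA1* (adjusted p = 0.00492) and 1.02 ± 0.20 for *GATA2* (adjusted p = 0.0118), and the other 4 members were not called. Without *RUNX1* the mean *GATA1* level was 2.52 CPM, beside a mean carry-over level of 2.40 CPM. The size of the *GATA1* fold change thus rests on background. With halved thresholds neither gene was called (log2 fold changes 2.83 and 0.40, adjusted p = 0.197 and 0.589), and *GATA2* was not called with doubled thresholds or without the deepest cells (adjusted p = 0.324 and 0.242).

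Markers of mature blood cells moved with this split. The 5 erythroid markers summed to 333 and 1521 CPM with *RUNX1* and to 72.3 and 167 CPM without it, the 5 megakaryocyte markers to 285 and 395 CPM against 43.4 and 57.4 CPM, and the 6 leukocyte markers to 545 and 226 CPM against 13.6 and 3.62 CPM. *CLC* was at 964 and 325 CPM against 2.22 and 16.1 CPM, and *HDC* at 29.6 and 46.1 CPM against 0.174 and 0.329 CPM. All erythroid and megakaryocyte markers had UMIs in both organoids, and 1 leukocyte marker was at 0 in organoid 32.7. The part that mixed droplets of endothelial and blood cells had in *GATA1* and *GATA2* was not tested. The endothelial markers themselves summed to 1719 and 1444 CPM with *RUNX1* and to 2320 and 2190 CPM without it. Of all genes, 680 were called higher and 625 lower, and the RLE scaling gave 703 and 345, DESeq2 1162 and 545.

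*GATA3*, which is best known from lymphocytes, was here a gene of endothelium and mesenchyme. It stood at 21.9 and 22.2 CPM in the *CDH5* gate and at 19.4 and 21.1 CPM in the *COL3A1* gate. The untested *AFP* gate followed, and the *MYH6* gate had 5.44 and 5.69 CPM. The blood gates had 1.83 and 3.02 CPM (*PF4*), 1.27 and 1.35 CPM (*HBZ*) and 1.32 and 0.706 CPM (*PTPRC*), the last of which did not exceed carry-over in organoid 33.10. *GATA3* fell by 4.10 ± 0.25 on the log2 scale in the *PTPRC* and by 2.80 ± 0.21 in the *PF4* gate relative to the *CDH5* gate, and by 1.86 ± 0.20 in the *MYH6* relative to the *COL3A1* gate. With carry-over removed the value for the *PTPRC* gate was -5.65. The *CDH5* and *COL3A1* gates did not overlap, yet their log2 difference of 0.15 ± 0.18 was not called (adjusted p = 0.513). After thinning, 5.59% and 6.39% of *CDH5* cells had a UMI of *GATA3*, and 0.233% and 0.242% of *PTPRC* cells.

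Most partners of the blood GATA factors stood higher in the *PF4* than in the *CDH5* gate. The list of 12 held the cofactor *ZFPM1* (FOG1), the members of the TAL1 complex and further blood factors, and all were tested. In the *PF4* over the *CDH5* gate 9 rose and 3 were not called, with a median log2 fold change of 3.19 against -0.00 over all genes. This stood beside 56.0% of all genes called. *ZFPM1* stood at 84.9 and 74.0 CPM in the *PF4* gate and at 19.4 and 14.9 CPM in the *CDH5* gate (log2 fold change 2.52 ± 0.18). *GFI1B* reached 170 and 162 CPM against 1.34 and 3.68 CPM, and *NFE2*, a factor of platelet formation, 219 and 202 CPM against 2.61 and 4.99 CPM. *LMO2* and *LDB1*, which bridge GATA and TAL1, were not among those that rose and stood higher in the *HBZ* than in the *PF4* gate by 2.09 ± 0.13 and 1.93 ± 0.14. Between the *HBZ* and *PF4* gates 4 partners rose and 6 fell, beside 49.1% of all genes called. *KLF1*, the erythroid factor, was at 229 and 217 CPM against 14.3 and 20.9 CPM, and *FLI1*, the megakaryocyte factor, at 9.48 and 21.8 CPM against 427 and 517 CPM. With *RUNX1* in the *CDH5* gate 7 of the 12 rose, beside 6.08% of all genes called, and 1 of these, *RUNX1*, chose the cells.

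Known blood targets of GATA factors split along the same line. Of 9 targets, 4 rose and 3 fell in the *HBZ* over the *PF4* gate, beside 49.1% of all genes called. Their median log2 fold change was 1.11, against -0.15 over all genes. The haem and red cell genes *ALAS2*, *EPOR*, *UROD* and *SLC4A1* were those that rose, and the platelet receptor genes *ITGA2B*, *GP1BA* and *GP9* those that fell. *ALAS2*, the first enzyme of haem synthesis in red cells, stood at 515 and 561 CPM in the *HBZ* gate and at 43.2 and 78.2 CPM in the *PF4* gate. *EPOR*, the erythropoietin receptor, was at 69.2 and 58.1 CPM against 38.4 and 33.0 CPM, and *ITGA2B* at 14.6 and 20.2 CPM against 949 and 859 CPM. *KIT* and *HDC* were not called there. In the *PF4* over the *CDH5* gate 7 of the 9 rose and 2 were not called, beside 56.0% of all genes called. Some targets are also markers of the lineages, and none of them set a gate.

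**Figure D5:**
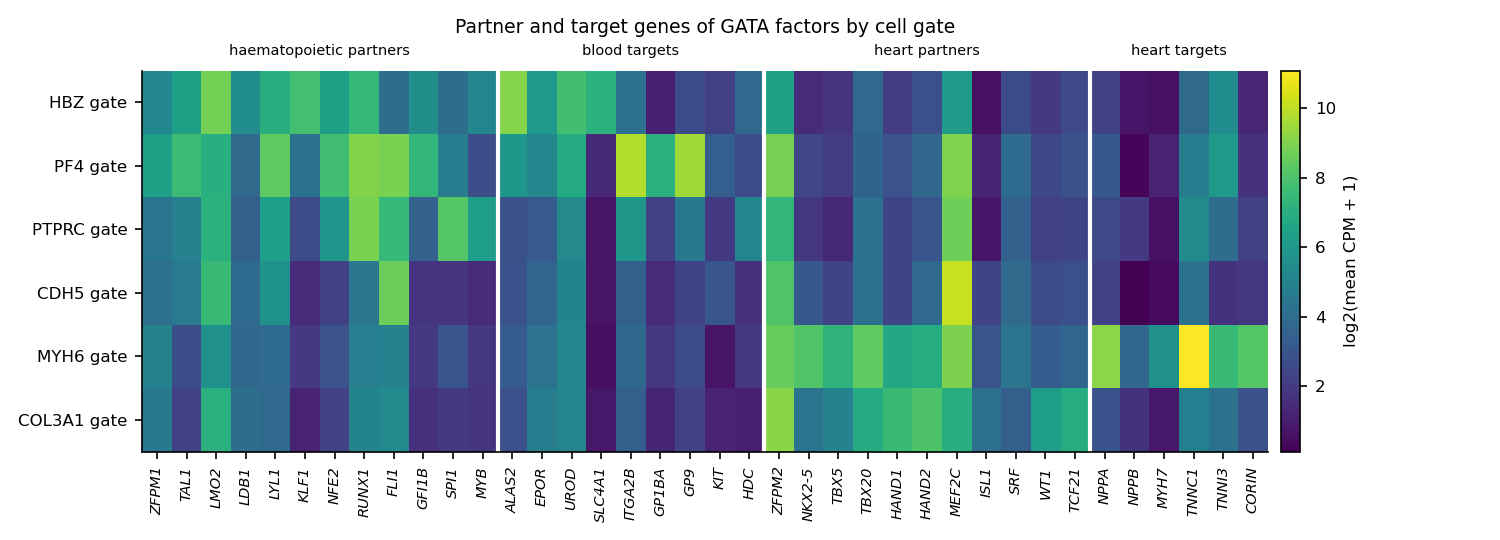
Mean level over the 2 organoids, as log2(CPM + 1), of the partner and target genes of blood and heart GATA factors (columns) in the 6 tested gates (rows). The erythroid targets *ALAS2* and *SLC4A1* stand out in the *HBZ* gate, *ITGA2B* and *GP9* in the *PF4* gate, and *NPPA* and *TNNC1* in the *MYH6* gate.

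The stretches before these genes show where the letters a GATA factor reads occur. Windows of 300 bases, from 250 before to 50 after the annotated start, were taken from RefSeq (GRCh38.p14) and searched on both strands for AGATAA or AGATAG and for TGATAA or TGATAG, whose occurrences can overlap one another. A match on the opposite strand is printed as its reverse complement. Of 35116 such windows over all genes 25% held at least 1 match. Windows were found for 10 of the 15 blood and heart targets, and 5 of these held a match, 3 of 7 among the blood targets. Only windows that held a match are shown, 5′ to 3′ on the strand of the gene, with matches in capitals. *ALAS2* (chrX:55030928-55031227, minus strand) has its match 127 bases before the start, *EPOR* (chr19:11384265-11384564, minus strand) 78 and *ITGA2B* (chr17:44389600-44389899, minus strand) 102. A match describes letters and no bound site.
ALAS2: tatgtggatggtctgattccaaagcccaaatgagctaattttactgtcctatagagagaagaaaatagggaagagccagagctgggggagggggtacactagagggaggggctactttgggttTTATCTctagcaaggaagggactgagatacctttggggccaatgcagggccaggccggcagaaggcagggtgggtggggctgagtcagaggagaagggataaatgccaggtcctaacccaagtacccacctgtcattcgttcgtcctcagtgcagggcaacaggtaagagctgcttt
EPOR: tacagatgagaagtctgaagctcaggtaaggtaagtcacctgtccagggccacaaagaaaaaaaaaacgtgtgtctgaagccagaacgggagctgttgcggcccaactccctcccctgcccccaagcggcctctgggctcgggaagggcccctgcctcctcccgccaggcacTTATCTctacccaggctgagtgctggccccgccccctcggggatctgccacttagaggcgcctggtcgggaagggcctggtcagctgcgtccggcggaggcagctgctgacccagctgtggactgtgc
ITGA2B: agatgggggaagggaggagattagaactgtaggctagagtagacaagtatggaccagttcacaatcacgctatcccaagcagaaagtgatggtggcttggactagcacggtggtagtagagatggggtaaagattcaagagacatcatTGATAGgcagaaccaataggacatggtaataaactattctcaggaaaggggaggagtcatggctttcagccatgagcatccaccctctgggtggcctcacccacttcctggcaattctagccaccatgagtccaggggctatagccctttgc

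For the heart targets *NPPA* and *TNNI3*, whose levels are given with the cardiac genes, 2 of 3 windows held matches. In *NPPA* (chr1:11847734-11848033, minus strand) they begin 142 and 95 bases before the start, and in *TNNI3* (chr19:55157683-55157982, minus strand) 71 and 7 bases before it. Of the GATA genes 4 had windows, 10 in all, and 0 of these held a match, which says only that these letters are not in these windows.
NPPA: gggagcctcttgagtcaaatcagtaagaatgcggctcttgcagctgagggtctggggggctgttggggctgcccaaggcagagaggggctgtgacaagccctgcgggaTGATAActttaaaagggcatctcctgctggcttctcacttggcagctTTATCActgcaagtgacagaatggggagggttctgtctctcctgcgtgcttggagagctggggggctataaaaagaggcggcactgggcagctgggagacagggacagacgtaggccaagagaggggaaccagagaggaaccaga
TNNI3: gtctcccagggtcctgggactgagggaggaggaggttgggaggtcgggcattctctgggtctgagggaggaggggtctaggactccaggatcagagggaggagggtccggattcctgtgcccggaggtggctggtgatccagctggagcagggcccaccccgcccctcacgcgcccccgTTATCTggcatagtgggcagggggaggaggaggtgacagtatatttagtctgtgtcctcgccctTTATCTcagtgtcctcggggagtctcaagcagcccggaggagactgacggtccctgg

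*GATA4*, the cardiac zinc-finger factor, was shared by cardiomyocytes and mesenchyme. It stood at 327 and 374 CPM in the *MYH6* gate and at 297 and 402 CPM in the *COL3A1* gate, which overlapped. The untested *AFP* gate followed with 118 and 160 CPM and the *CDH5* gate with 83.1 and 92.7 CPM, and the blood gates lay at 22.0 and 25.7 CPM (*PF4*), 17.1 and 11.4 CPM (*PTPRC*) and 14.0 and 13.1 CPM (*HBZ*). Carry-over levels there ran from 6.04 to 21.1 CPM, and the *PTPRC* gate of organoid 33.10 lay below its own. With doubled thresholds the mean over the organoids in the *HBZ* gate was 27.2 CPM in place of 13.6 CPM, and with halved thresholds that in the *PF4* gate 14.1 in place of 23.9 CPM. The log2 difference between the *MYH6* and *COL3A1* gates was 0.02 ± 0.17 (adjusted p = 0.954), and its sign turned without the expression filter and without the deepest cells (-0.023 and -0.045). *GATA4* fell by 1.96 ± 0.18 on the log2 scale in the *CDH5* relative to the *COL3A1* gate (adjusted p = 5.44e-06). Relative to the *CDH5* gate it fell by 1.56 ± 0.18 in the *PF4* and by 2.37 ± 0.19 in the *PTPRC* gate, the latter -3.95 with carry-over removed. A log2 difference of -0.55 ± 0.19 between the *HBZ* and *PF4* gates was called (adjusted p = 0.0324). That call was lost under 5 other settings, with carry-over removed among them (adjusted p = 0.726). Thinned to 3000 UMIs, 52.7% and 59.7% of *MYH6* cells and 47.1% and 58.1% of *COL3A1* cells had a UMI of *GATA4*, against 4.50% and 3.68% of *HBZ* cells.

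*GATA5*, a factor of endocardium and cardiac mesoderm, had its highest level in the erythroid gate. It stood at 29.8 and 28.2 CPM in the *HBZ* gate, at 24.2 and 25.1 CPM in the *COL3A1* gate and at 17.0 and 17.9 CPM in the *MYH6* gate. The other gates lay far lower, with 4.30 and 3.6 CPM (*PF4*), 3.14 and 3.75 CPM (*CDH5*) and 1.26 and 0.824 CPM (*PTPRC*), and with 10.6 and 5.16 CPM in the untested *AFP* gate. The top 3 gates did not overlap with each other or with these. The *HBZ* and *COL3A1* gates were not compared in a fit, and the mean level of the former was 1.18 times that of the latter. The carry-over level of *GATA5* in the *HBZ* gate was 0.514 and 0.744 CPM. The level of *GATA5* itself rested on 352 and 584 UMIs there. These were 13.2% and 16.9% of all *GATA5* UMIs, in 3.80% and 7.57% of the cells. Cells of the *HBZ* gate were deeper than all kept cells, with a median of 15507 and 11159 UMIs against 7887.5 and 8284. The *COL3A1* gate held 35.6% and 26.7% of the *GATA5* UMIs in 15.9% and 11.9% of the cells. In the *HBZ* over the *PF4* gate the log2 fold change was 3.18 ± 0.17 (adjusted p = 1.53e-07), and over the *PTPRC* gate 5.06 ± 0.20 (adjusted p = 2.24e-08). Because the level in the *PTPRC* gate did not exceed carry-over, the size of the latter rests on background, and with carry-over removed it was 6.97.

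The erythroid *GATA5* was seen in cells with and without a UMI of *MKI67*, at a slightly higher level in the former, which was not tested. Cells of the *HBZ* gate with *MKI67* had *GATA5* at 31.3 and 30.1 CPM, and cells without *MKI67* at 27.6 and 26.7 CPM. Haemoglobin genes made up 9.50% and 9.23% of the UMIs with *MKI67* and 14.3% and 12.7% without it. Cells with *MKI67* were also deeper, and the part of depth and haemoglobin was not tested. A cell without a UMI of *MKI67* is not shown to be non-dividing. Thinned to 3000 UMIs, 7.83% (5.81 to 10.3%) and 6.88% (5.62 to 8.31%) of *HBZ* cells had a UMI of *GATA5*, against 1.93% and 0.980% of *PF4* cells and 6.62% and 8.26% of *COL3A1* cells. Among *HBZ* cells with *GATA1* the share with *GATA5* was 5.56% and 7.32%, and among those without *GATA1* 8.55% and 6.72%, with overlapping intervals. The mesenchymal and cardiomyocyte markers, whose gates also hold *GATA5*, summed to 67.4 and 47.1 CPM and to 107 and 107 CPM in the *HBZ* gate, against 122 and 96.3 CPM and 223 and 207 CPM in the *PF4* gate. Elsewhere *GATA5* was lower in the *CDH5* than in the *COL3A1* gate by 2.82 ± 0.15 (log2 fold change -2.82), and in the *MYH6* than in the *COL3A1* gate by 0.49 ± 0.14 (log2 fold change -0.49, adjusted p = 0.0164), a call lost with doubled thresholds and with carry-over removed. The small call between the *PF4* and *CDH5* gates (log2 fold change 0.47 ± 0.18, adjusted p = 0.0387) was lost under 5 other settings, and the levels of the organoids overlapped.

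*GATA6*, which shares cardiac and endodermal functions with *GATA4*, was high in the same pair of gates and in the *AFP* gate. It stood at 66.9 and 73.9 CPM in the *COL3A1* gate and at 58.7 and 63.1 CPM in the *MYH6* gate, which were narrowly apart. The untested *AFP* gate overlapped both, with 43.7 and 72.2 CPM. The *CDH5* gate had 15.6 and 16.6 CPM, the *HBZ* gate 11 and 10.4 CPM, the *PF4* gate 6.56 and 8.97 CPM and the *PTPRC* gate 3.67 and 3.53 CPM. *GATA6* fell by 2.10 ± 0.12 on the log2 scale in the *CDH5* relative to the *COL3A1* gate (adjusted p = 1.86e-07), whereas the *MYH6* and *COL3A1* gates differed by -0.20 ± 0.11 (adjusted p = 0.181). As for *GATA5*, the *HBZ* gate was the highest of the blood gates, above its carry-over level of 1.28 and 1.80 CPM. Its log2 fold change was 0.70 ± 0.13 over the *PF4* gate (adjusted p = 0.00124) and 1.91 ± 0.15 over the *PTPRC* gate, and without the deepest cells the first of these was 0.37 (adjusted p = 0.0855).

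The antisense gene *GATA6-AS1*, which starts next to *GATA6* on the other strand, had a different balance. It stood at 110 and 95.9 CPM in the *MYH6* gate and at 32.4 and 23.4 CPM in the *COL3A1* gate (log2 fold change 1.89 ± 0.23, called), and at 2.89 and 2.41 CPM in the *CDH5* gate. The atypical GATA-type repressor gene *TRPS1* was highest in the *PTPRC* gate (208 and 211 CPM) and the *COL3A1* gate (199 and 213 CPM), and low in the *HBZ* gate (9.05 and 10.7 CPM). Within the *PTPRC* gate it was at 245 and 273 CPM in the *C1QA* cells and at 49.5 and 40.2 CPM in the *EPX* or *CLC* cells, opposite to *GATA1* and *GATA2* (log2 fold change -2.49 ± 0.19, called).

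The heart partners moved in both directions where *GATA4* and *GATA6* were not called. In the *MYH6* over the *COL3A1* gate 5 of 11 rose, 4 fell and 2 were not called, with a median log2 fold change of -0.60 against -0.06 over all genes. This stood beside 40.7% of all genes called. *NKX2-5*, the homeobox gene of early cardiomyocytes and the gene that carries the reporter in this line, stood at 299.9 and 249 CPM against 19.7 and 18.3 CPM (log2 fold change 3.86 ± 0.24). *TBX5* had 150 and 151 CPM against 26.5 and 35.3 CPM (log2 fold change 2.30 ± 0.21). *WT1* and *TCF21*, factors of epicardium and its derivatives, were lower by 3.10 ± 0.23 and 3.32 ± 0.26 (log2 fold changes -3.10 and -3.32). The others that fell were the cardiac factors *HAND2* and *ISL1*, by 1.10 ± 0.14 and 1.28 ± 0.33 on the log2 scale. The cofactor *ZFPM2* (FOG2) was at 323 and 416 CPM against 435 and 698 CPM and was not called. All 6 heart targets rose, with a median log2 fold change of 5.70. *NPPA*, the atrial natriuretic peptide, reached 610 and 561 CPM against 5.45 and 7.39 CPM, and *TNNI3*, cardiac troponin I, 196 and 172 CPM against 16.4 and 18.8 CPM. Of these 6 targets, 4 also rose in the *PF4* over the *CDH5* gate, beside 56.0% of all genes called. *TNNI3* was among them (log2 fold change 5.09 ± 0.23). In the *PTPRC* over the *CDH5* gate 4 rose, beside 53.1% of all genes called. *GATA4* was lower than in the *CDH5* gate in both. The 5 cardiomyocyte markers summed to 223 and 207 CPM in the *PF4*, 166 and 122 CPM in the *PTPRC* and 125 and 119 CPM in the *CDH5* gate. In the same order, the median ratio of the carry-over markers was 0.0541 and 0.110, 0.0599 and 0.0771, and 0.0318 and 0.0650. The part of leaked RNA in these rises was not tested. In the *CDH5* over the *COL3A1* gate 9 of the 11 heart partners fell together with *GATA4*, *GATA5* and *GATA6*, and *MEF2C* and *SRF* rose. Of all genes, 50.8% were called in that comparison.

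Endothelial cells were uneven in the heart GATA genes, and *NR2F2*, a nuclear receptor of venous and atrial identity, separated them. Cells with at least 2 UMIs of *NR2F2* numbered 481 and 438, and cells with 0 numbered 1547 and 1482. *GATA4* was at 236 and 252 CPM with *NR2F2* and at 30.1 and 36.1 CPM without it. *GATA5* was at 7.61 and 9.37 CPM against 1.75 and 1.86 CPM, and *GATA6* at 22.9 and 27.3 CPM against 12.6 and 13.0 CPM. *GATA2* went the other way, with 16.9 and 12.9 CPM against 25.8 and 26.4 CPM. None of these 4 overlapped between the sets, nor did 54.5% of all genes. The log2 fold change was 2.76 ± 0.18 for *GATA4* (adjusted p = 2.91e-06), 2.10 ± 0.19 for *GATA5*, 0.85 ± 0.13 for *GATA6* and -0.92 ± 0.19 for *GATA2* (adjusted p = 0.00794), and *GATA1* and *GATA3* were not called. In cells thinned to 3000 UMIs, *GATA4* was found in 37.7% and 35.9% with *NR2F2* and in 7.97% and 8.02% without it.

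Several partners moved with this split. *TBX5*, *ZFPM2* and *HAND2* rose by 1.72 ± 0.30, 1.43 ± 0.31 and 0.70 ± 0.15 on the log2 scale, *MEF2C* fell by 0.56 ± 0.14, and 7 of the 11 heart partners were not called. Of all genes, 13.2% were called in this split. *SOX17*, an arterial and endodermal factor, was at 51.5 and 47.2 CPM with *NR2F2* and at 223 and 178 CPM without it, and *KIT* at 14.0 and 16.0 CPM against 4.61 and 4.25 CPM. The endothelial markers summed to 2213 and 1961 CPM with *NR2F2* and to 2359 and 2255 CPM without it. The 5 mesenchymal markers were higher with *NR2F2*, at 158 and 168 CPM against 53.9 and 67.6 CPM, and their part in *GATA4* was not tested. In the *COL3A1* gate, whose mesenchymal markers summed to 3069 and 2261 CPM, *GATA4* was at 297 and 402 CPM.

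In the mesenchymal gate, *WT1* gave no call for a GATA gene in edgeR. Cells with at least 2 UMIs of *WT1* numbered 605 and 699, and cells without it 1555 and 1150. *GATA4* was at 403 and 504 CPM against 230 and 318 CPM, *GATA6* at 72.9 and 91.9 CPM against 64.4 and 59.3 CPM, and *GATA3* at 15.4 and 16.9 CPM against 21.5 and 26.4 CPM. The sets did not overlap for any of these, nor for 47.3% of all genes, and the fitted differences of 0.62 ± 0.18, 0.30 ± 0.13 and -0.67 ± 0.18 had adjusted p of 0.216, 0.349 and 0.183. An unadjusted p under 0.05 was found for 4 of the 6 members and for 13.2% of all genes. With the organoid as a block *GATA3* and *GATA4* were called (adjusted p = 0.0435 and 0.0459), without the expression filter *GATA4* (adjusted p = 0.0408), and with DESeq2 0 were. Only 43 genes were called in all, *WT1* itself among them, and 992 with the block.

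The *AFP* gate, the endoderm of these cultures, was too small for a test, since organoid 33.10 had 12 such cells. *GATA4* was at 118 and 160 CPM there, *GATA6* at 43.7 and 72.2 CPM, *GATA3* at 7.48 and 15.5 CPM and *GATA5* at 10.6 and 5.16 CPM. *HNF4A*, a liver and gut endoderm factor, stood at 114 and 181 CPM. In organoid 33.10 the value of *GATA6* rested on 14 UMIs and that of *GATA4* on 31. *GATA1* and *GATA2* had 20 and 16 UMIs in organoid 32.7 and 0 in organoid 33.10, which allows up to 15.5 CPM. The carry-over level of *GATA4* was 54.9 CPM in organoid 32.7, and that of *GATA6* 11.6 CPM. Of the 6 endoderm partners, 2 passed the expression filter over the other gates, *HNF4A* and *SOX17*.

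In single cells of the *COL3A1* gate, *GATA5* and *GATA6* were found more often with *GATA4* than without it, and in the *CDH5* gate *GATA6* was. Among *COL3A1* cells thinned to 3000 UMIs, *GATA6* was found in 19.4% (17.3 to 21.7%) of cells with *GATA4* and in 15% (13.1 to 16.9%) of cells without it in organoid 32.7. Organoid 33.10 gave 24.3% (22.1 to 26.7%) and 14.1% (12.0 to 16.5%). *GATA5* was found in 8.92% against 4.58% and in 10.1% against 5.69%. The intervals were apart for both pairs in both organoids, and cells of an organoid share their source, so that no test was made. These intervals cover counting error only. In the *CDH5* gate *GATA6* was found in 8.66% and 8.78% of cells with *GATA4* and in 4.71% and 4.25% of cells without it, with intervals apart. Among the *CDH5* cells with *NR2F2* the shares were 7.78% and 9.68% against 6.38% and 6.86%, with overlapping intervals. For *GATA3* in the *CDH5* gate the organoids went opposite ways, with 3.58% and 11.3% of cells with *GATA4* against 5.95% and 5.50% without it. In organoid 33.10 these intervals were apart. In the *MYH6* gate *GATA6* was found in 16.8% and 19.1% of cells with *GATA4* and in 15.4% and 15.6% of cells without it, with overlapping intervals. *GATA5* went opposite ways there, with 3.29% and 5.83% against 6.25% and 4.78%, and the intervals overlapped. *GATA1* and *GATA2* gave overlapping intervals in the *PF4* gate, where *GATA2* was found in 5.68% and 5.92% of cells with *GATA1* and in 7.12% and 6.30% of cells without it.

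Across the 12 sums of 6 gates, profiles of log2(CPM + 1) were compared as a description, since the 12 points share 2 libraries. Within the family, *GATA4* and *GATA6* were most alike (Pearson's r = 0.946), *GATA3* and *GATA4* followed (r = 0.780), and *GATA1* ran against *GATA4* (r = -0.748). Of the 21534 genes, *GFI1B*, *GLOD5*, *MFSD2B*, *RHAG* and *PIM2* came closest to *GATA1* (r = 0.985 to 0.994), and *SYNE2*, *SBK1*, *CDH2*, *C4orf47* and *ABCA8* to *GATA4* (r up to 0.996). *GATA3* was followed by *SPRY1*, *ARFGEF3*, *NFIB*, *LIFR* and *CDH13* (r up to 0.991), *GATA5* by *LINC02609*, *FUNDC2*, *SLC25A42*, *ANGPTL1* and *FGFR3* (r up to 0.963), and *GATA6* by *BEND5*, *ASXL3*, *DLG3*, *LRRTM4* and *AC233296.1* (r up to 0.988). For *GATA2*, with its flat profile, the closest genes were *SLC3A2*, *DPM2*, *MAGOH*, *PSMB2* and *SNW1* (r up to 0.949).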

How the data were processed

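Single cells of 2 organoids were profiled with the 10x Genomics 3′ v3.1 kit, 1 library each. The authors counted reads with Cell Ranger against GRCh38, introns included per their methods, and deposited raw UMI counts per gene and barcode, made before their removal of free RNA. How the counting used strand is not given in the sources used here. Cells with 50 to 11000 genes and under 30% mitochondrial UMIs were kept, as in the study (16792 and 19893 of 16866 and 19948 barcodes, with 191152562 and 233818881 UMIs). Cells were gated on raw UMIs, and counts were summed per gate and organoid. Sums of the 6 gates were tested with edgeR 4.0.16 (R 4.3.3, quasi-likelihood test, TMM, filterByExpr, Benjamini-Hochberg over all genes), and cells split by a second gene likewise. Gates with under 20 cells in an organoid, as *AFP*, were not fitted. Carry-over is the median ratio of other lineages' markers in a gate to all cells. It left out erythroid markers for the *PF4* gate and megakaryocyte markers for the *HBZ* gate. Shares of cells were computed after thinning to 3000 UMIs, with exact 95% intervals, and a count of 0 allows up to 3 counts. Named were the members, *TRPS1*, antisense genes, gate genes, fixed partner and target lists, and the 5 genes most correlated with each member. Some genes of the target list are not reported here. The members and lists were chosen with earlier results of these data known. Alternatives were halved and doubled gates, the organoid as a block, RLE scaling, DESeq2 1.42.0, no expression filter, haemoglobin genes removed, carry-over removed, all barcodes and the deepest cells (over 2 times the median) left out. A fit of only the compared gates and 2 subsets of ungated cells were added after the data were seen. Sums of the same organoid are paired by origin, and their deviations from the gate means correlated at 0.0763 to 0.328 over 15 pairs of gates.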

Additional observations from a re-analysis of the deposited data

Results flagged for a closer look

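Cells that passed no gate still held *GATA1* above its level in the *COL3A1* gate and *GATA2* above its level in every gate. *GATA1* stood there at 34.5 CPM in organoid 32.7 and at 62.1 CPM in organoid 33.10, against 1.95 and 5.36 CPM in the *COL3A1* gate. *GATA2* stood at 24.9 and 33.2 CPM, against 5.73 and 6.03 CPM in the *MYH6* gate. The gate with the highest mean of *GATA2*, *CDH5*, had 23.3 and 22.4 CPM. The share of all genes that were higher in these cells than in every gate was not computed. These cells were shallow, with a median of 2962 and 4220 UMIs. Their 5 erythroid markers summed to 1239 and 2000 CPM and their 5 megakaryocyte markers to 477 and 602 CPM. The part of blood cells that missed the gates was not tested.

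A pair of subsets of these cells was chosen after the data were seen. Ungated cells with at least 2 UMIs of *ITGA2B* (263 and 782 cells) had *GATA1* at 189 and 171 CPM and *GATA2* at 94.6 and 68.6 CPM, and the *PF4* gate had *GATA2* at 23.0 and 21.6 CPM. In this subset the erythroid markers summed to 3096 and 2963 CPM and the megakaryocyte markers to 2370 and 1823 CPM. Ungated cells with at least 3 UMIs of *EPX* and *CLC* together (96 and 58 cells) had *GATA1* at 67.9 and 42.5 CPM and *GATA2* at 52.4 and 122 CPM, so that *GATA1* of organoid 33.10 was lower there than in all ungated cells. No test was made between these cells and the gates.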

How the results depend on the processing

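Over 11 alternatives, 602 fold changes of GATA genes kept their direction and their side of the threshold, 22 lost and 11 gained a call, and 10 uncalled ones changed sign. DESeq2, removal of haemoglobin genes and use of all barcodes changed no call of a GATA gene. With the organoid as a replicate block *GATA1* between the *HBZ* and *PF4* gates (adjusted p = 0.0324) and *GATA3* and *GATA4* in the *WT1* split were gained, so that 2 members were called there, and no other call changed; all genes called rose to 2008 in the *RUNX1*, 4381 in the *NR2F2* and 992 in the *WT1* split. Halved thresholds gave 95, 1716 and 7 genes in these splits and 0 members in the *RUNX1* split. Doubled thresholds gave 1 member there, beside 1702 of 21287 genes, and leaving out the deepest cells 1 member, beside 922 of 20344 genes. Without the deepest cells 1 member was called between the *HBZ* and *PF4* gates, beside 9043 of 20289 genes. In the *WT1* split DESeq2 called 275 genes, no expression filter 323 genes and 1 member, carry-over removal 3 genes and the fit of only the compared gates 1 gene. Signs turned with halved thresholds for *GATA2* between the *PTPRC* and *CDH5* gates (0.17), *GATA5* and *GATA6* in the *RUNX1* split (0.27 and 0.057), *GATA6* in the *EPX* or *CLC* comparison (-0.036) and *GATA1* in the *WT1* split (-0.12). They turned with doubled thresholds for *GATA5* in the *RUNX1* split (0.79) and *GATA1* in the *WT1* split (-0.80), without the deepest cells for *GATA1* in the *WT1* split (-0.19) and *GATA4* between the *MYH6* and *COL3A1* gates (-0.045), and for the latter without the filter (-0.023). Without thinning, 2 of the 6 members kept the gate with the highest share of cells. The causes were not tested. The *AFP* gate, and the *EPX* or *CLC* cells with doubled thresholds or without the deepest cells, had too few cells for a fit. Leaving out an organoid left 1 sum per gate, so that the ratio in the other organoid is a value with no test. No called fold change turned its sign in organoid 32.7 or in organoid 33.10 alone. Called values that moved by over 1.5 times were those of *GATA1* in the *HBZ* over the *PTPRC* gate (log2 ratio 3.83 in organoid 32.7 and 1.93 in organoid 33.10), in the *PF4* over the *CDH5* gate (7.0 and 5.49) and in the *RUNX1* split (4.83 in organoid 32.7), and of *GATA2* in the *EPX* or *CLC* over the *C1QA* cells (4.97 and 7.57). Uncalled ones that turned included *GATA2* between the *HBZ* and *PF4* gates in organoid 32.7 (-0.0091) and *GATA4* between the *MYH6* and *COL3A1* gates in organoid 33.10 (-0.066). Of 42 mean levels, carry-over removal moved 13 by over 1.5 times, and halved thresholds, doubled thresholds and leaving out the deepest cells moved 3 each, in the *AFP* gate except for *GATA4* in the *PF4* (halved) and *HBZ* gates and *GATA3* in the *HBZ* and *PTPRC* gates (doubled).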
